A study of Mus musculus with 12 samples.

Results

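The interferon regulatory factor (IRF) genes Irf1, Irf2, Irf3, Irf4, Irf5, Irf7, Irf8 and Irf9 were followed through bulk RNA sequencing of M2-like polarized bone marrow–derived macrophages (BMDM). Members were taken by name, as the rows of the count matrix whose Ensembl identifiers belong to these genes, which are 8 of 56748 genes. The removal of weakly expressed genes left the 8 in place, and they were tested. On GRCm39 the tested members lie apart from each other: Irf1 at chr11:53660812-53669200 (+ strand), Irf2 at chr8:47192222-47300501 (+ strand), Irf3 at chr7:44647033-44652272 (+ strand), Irf4 at chr13:30933209-30950959 (+ strand), Irf5 at chr6:29526276-29541870 (+ strand), Irf7 at chr7:140842619-140846398 (- strand), Irf8 at chr8:121463096-121485659 (+ strand) and Irf9 at chr14:55841028-55847812 (+ strand).

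All BMDM came from female C57BL/6J mice, which the study bought at 10 to 12 weeks of age, were grown with 20 ng/mL M-CSF and were polarized with 10 ng/mL IL4 for 48 hours, the untreated control included. They were then kept for 72 hours in plain medium (untreated control) or in supernatant of YUMM5.2 eGFP cells (eGFP supernatant). The other conditions, also of 72 hours, were supernatant of YUMM5.2 Ifnb1eGFP cells diluted to 1500 pg/mL IFNβ (Ifnb1eGFP supernatant) and recombinant IFNβ (rIFNβ). Each condition had 3 libraries. The rIFNβ concentration is taken here to be the same 1500 pg/mL, as the methods give no figure for it. YUMM5.2 is a mouse melanoma line that here carries a lentiviral tetracycline-responsive promoter before Ifnb1 and eGFP, or before eGFP alone. Both donor lines were held in 1 μg/mL Dox for 72 hours before harvest, and the eGFP supernatant was diluted at the ratio used for the Ifnb1eGFP supernatant. The series counts 3 mice per condition, and whether libraries with the same replicate number share a mouse is not given in the sources used here.

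Library totals ran from 31526034 to 45348457 counts. eGFP supernatant replicate 2 stood apart from the other libraries without IFNβ in its IFN-stimulated genes. Values are given with and without it for Irf7, Irf9, Irf1 and Stat2 and for the median of a list of IFN-stimulated genes. Single values of further list genes between the supernatants include this library. The macrophage markers were strongly expressed, with Lyz2 at 3441 to 12828 CPM, the unit in which the scaled total of every library is set to the same size, and Adgre1 at 1484 to 1836 CPM. The summed CPM of 7 macrophage markers was 14121 to 15262 in untreated control, 17928 to 18457 with eGFP supernatant, 10286 to 10581 with Ifnb1eGFP supernatant and 9648 to 9821 with rIFNβ. Lyz2 and Itgam fell with IFNβ, Lyz2 from means of 12396 to 4111 CPM between the supernatants and from 9415 to 3472 CPM with rIFNβ, and Itgam from 1620.2 to 409 and from 1454 to 323 CPM. Adgre1, Cd68 and Fcgr1 rose in both comparisons, Cd68 from 1289 to 1645 and from 1240.1 to 1749.96 CPM and Fcgr1 from 83.0 to 1199 and from 52.6 to 1155 CPM, so that the markers of the list did not move together. The part of these shifts in the IRF values was not tested, and in bulk samples fewer cells of a type and less RNA per cell cannot be told apart. Markers of other cell types were near the floor. Those of dendritic cells summed to 1.56 to 2.03 CPM without IFNβ and 0.348 to 0.733 CPM with it, those of neutrophils or myeloid progenitors to 4.28 to 5.72 and 0.208 to 0.985 CPM, and those of T or NK cells to 0.191 to 0.577 and 0 to 0.0593 CPM. Few genes made up these sums. Zbtb46 reached 1.61 CPM and Clec9a 0.427, beside at most 0.135 for Flt3, Xcr1, Siglech and Ccr7. S100a8 reached 5.72 CPM, beside at most 0.253 for S100a9, Ly6g, Mpo and Elane. Klrb1c reached 0.577 CPM, beside at most 0.0297 for Cd3e, Cd3g, Trac and Ncr1. B or plasma cell markers went the other way, with sums of 0.191 to 0.527 CPM without IFNβ and 0.497 to 0.920 CPM with it. So did epithelial markers, at 0.0487 to 0.151 and 0.152 to 0.253 CPM. Melanoma cell markers summed to at most 0.810 CPM. The defining markers Krt5 and Epcam (epithelium) had 0 counts in all 12 libraries, and Flt3 and Siglech (dendritic cells) had at most 1.

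IRF proteins are transcription factors that read repeats of GAAA through a shared DNA-binding domain. When type I IFN binds its receptor, IRF9 joins phosphorylated STAT proteins in the complex ISGF3, which binds the IFN-stimulated response element (ISRE), while STAT dimers bind the gamma-activated site (GAS). IRF3 and IRF7 switch on the IFN genes themselves, IRF1 activates and IRF2 counteracts it at shared sites, IRF5 carries Toll-like receptor signals to cytokine genes, and IRF4 and IRF8 bind composite elements together with ETS factors such as PU.1 and are known for M2 polarization and for myeloid differentiation, respectively.

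The stretches before the starts of Irf1, Irf2, Irf8 and Irf7 are shown because the first 3 held every motif match found in the family and Irf7 had the largest difference between conditions. Sequences are those of RefSeq, placed on GRCm39 by exact match, 5′ to 3′ on the strand of the gene, and stop before the first base that is exonic in the gene. Capitals mark matches. The Irf2 stretch lies in the first intron of 1 annotated Irf2 transcript that starts further upstream, and first exons of the opposite-strand noncoding RNA Gm16675 cover part of it.
Irf1, chr11:53660591-53660811 (+ strand): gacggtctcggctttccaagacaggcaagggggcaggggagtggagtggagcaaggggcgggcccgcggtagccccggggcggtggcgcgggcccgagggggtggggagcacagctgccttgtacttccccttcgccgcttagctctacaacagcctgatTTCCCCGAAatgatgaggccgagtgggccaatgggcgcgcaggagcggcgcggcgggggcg
Irf2, chr8:47192530-47192749 (+ strand): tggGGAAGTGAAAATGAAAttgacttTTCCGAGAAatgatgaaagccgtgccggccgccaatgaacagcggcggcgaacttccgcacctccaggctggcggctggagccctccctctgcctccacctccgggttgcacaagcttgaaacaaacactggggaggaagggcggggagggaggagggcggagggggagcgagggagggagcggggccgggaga
Irf8, chr8:121462847-121463095 (+ strand): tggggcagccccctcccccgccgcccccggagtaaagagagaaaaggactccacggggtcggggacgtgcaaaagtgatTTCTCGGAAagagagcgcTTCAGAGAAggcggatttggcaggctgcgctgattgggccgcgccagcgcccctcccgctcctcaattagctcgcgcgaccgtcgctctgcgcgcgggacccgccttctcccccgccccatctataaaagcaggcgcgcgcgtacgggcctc
Irf7, chr7:140846399-140846587 (- strand): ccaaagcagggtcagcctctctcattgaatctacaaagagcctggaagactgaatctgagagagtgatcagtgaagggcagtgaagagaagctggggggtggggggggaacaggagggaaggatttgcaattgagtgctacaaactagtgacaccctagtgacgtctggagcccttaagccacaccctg

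The letters searched on both strands, in the 250 bases before each RefSeq start, were GAAA and GAAA parted by any 2 bases for the ISRE core, TTCNNNGAA for the GAS core, and GGAA and GAAA parted by any 2 bases for the ETS-IRF composite. Promoters of 8 IRF genes were in the RefSeq table. Irf2 alone held an ISRE core, GAAAATGAAA, which overlaps its composite GGAAGTGAAA, and it also held the GAS core TTCCGAGAA. Irf1 held 1 GAS core, TTCCCCGAA, 90 to 82 bases before its start, and Irf8 held 2, TTCTCGGAA and TTCAGAGAA. Irf3, Irf4, Irf5, Irf7 and Irf9 held none of the 3 motifs in this window. Among all 32851 promoters of the table, 2.98% held the ISRE core, 7.02% the GAS core and 2.30% the composite. Counted per gene, the shares of 27025 genes were 3.46%, 8.13% and 2.68%. In the 500 bases before the canonical starts the same 3 IRF genes held matches. Of 21770 genes, 6.96% held the ISRE core, 15.4% the GAS core and 5.23% the composite in that window. These are letters in a window and say nothing of binding.

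To ask how IFNβ acts with the supernatant held constant, Ifnb1eGFP supernatant was compared with eGFP supernatant, and rIFNβ was compared with untreated control as the same question without supernatant. These comparisons hold different libraries, and each library enters again in the comparisons of supernatant. Irf1, Irf2, Irf5, Irf7 and Irf9 were higher and Irf4 was lower with IFNβ in both comparisons, while Irf3 and Irf8 did not pass the test in either (edgeR's quasi-likelihood test, adjusted p of at most 0.05). Thus 6 of 8 tested IRF genes were called in each comparison, beside 55.1% of all 15033 genes tested for Ifnb1eGFP supernatant and 55.3% for rIFNβ. For the 5 higher members the share of all genes called higher was 30.1% and 30.7%, and for the 1 lower member the share called lower was 25% and 24.6%. The median log2 fold change of the 8 members was 0.74 and 0.75, beside 0.03 and 0.04 over all genes tested. Between the compared groups of 3 libraries the values of 6 members did not overlap for Ifnb1eGFP supernatant, beside 59% of all genes, and those of 8 did not for rIFNβ, beside 66.1%. Irf7 was the 1 member whose log2 fold change also reached 2 at an adjusted p no higher than 0.01, which 5.39% and 5.77% of all genes did.

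**Figure D1:**
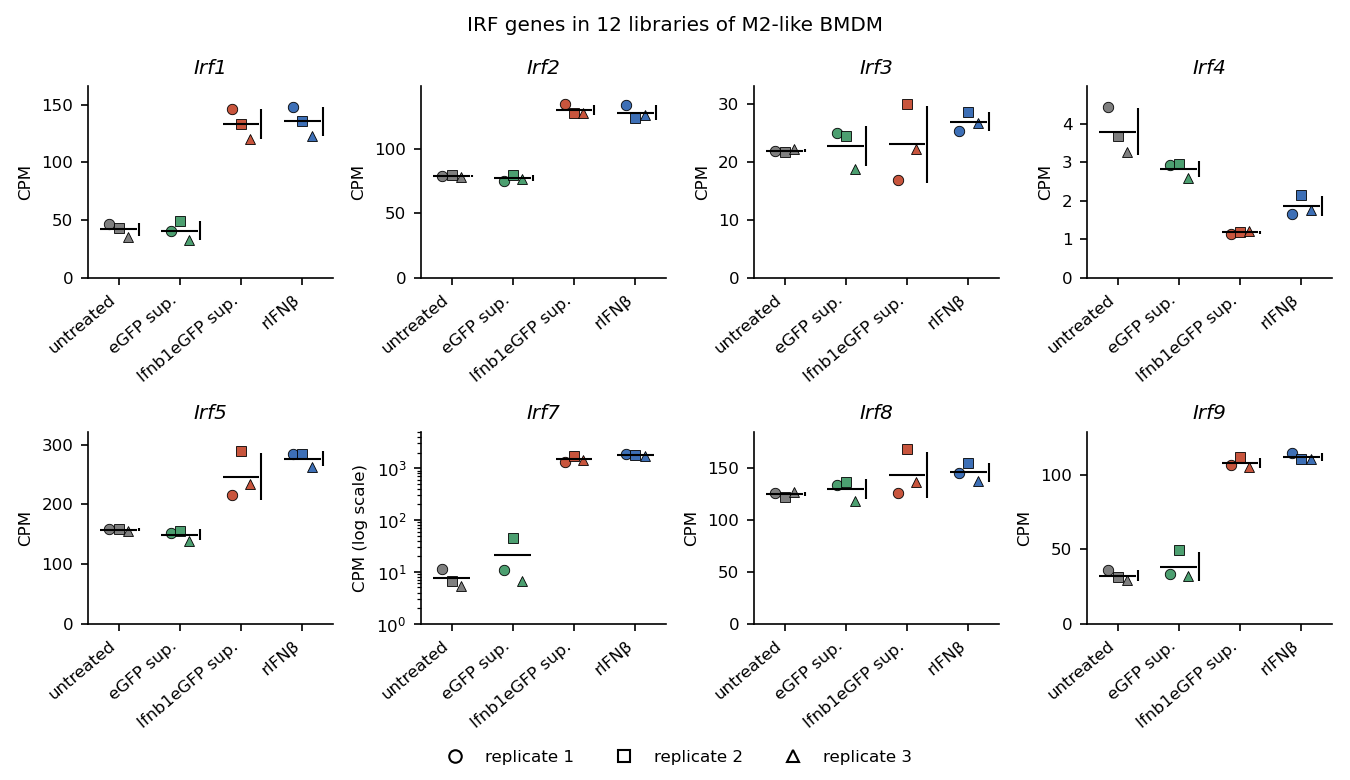
Level of 8 IRF genes in each of the 12 libraries, in CPM (linear axes from 0, with a log axis for Irf7), with 1 symbol per replicate number, a horizontal line at the mean of 3 libraries and a vertical line of ± 1 SD (not drawn for Irf7). Irf7 lies between 1333 and 1904 CPM in the 6 libraries with IFNβ and between 5.25 and 45.2 CPM in the other 6.

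Irf7, the amplifier of type I IFN production, showed the largest differences of the family. Untreated control had 11.3, 6.56 and 5.25 CPM, and eGFP supernatant had 11, 45.2 and 6.63 CPM. With Ifnb1eGFP supernatant it had 1333, 1695 and 1453 CPM, and with rIFNβ 1904, 1781 and 1742 CPM. All 6 libraries with IFNβ lay above all 6 without it. The level was 71.2-fold higher with Ifnb1eGFP than with eGFP supernatant (95% interval 26.8 to 189.6, edgeR adjusted p = 8.39e-06) and 237-fold higher with rIFNβ than in untreated control (81.2 to 691, edgeR adjusted p = 2.10e-06). The first of these folds rests on eGFP supernatant replicate 2: without this library it was 169-fold. The difference between both effects had an edgeR adjusted p of 0.926 in the interaction test.

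Irf9, the DNA-binding subunit of ISGF3, rose in both comparisons by less than Irf7. It had 36.3, 31.4 and 29.2 CPM in untreated control, 33.3, 49.5 and 31.9 with eGFP supernatant, 107, 112 and 106 with Ifnb1eGFP supernatant and 115, 110.4 and 110.5 CPM with rIFNβ. The groups did not overlap, and the level was 2.83-fold higher with Ifnb1eGFP supernatant (95% interval 2.28 to 3.5, edgeR adjusted p = 3.44e-06) and 3.47-fold higher with rIFNβ (2.79 to 4.31, edgeR adjusted p = 8.01e-07). Without eGFP supernatant replicate 2 the first fold of Irf9 was 3.32. Stat2, its partner in ISGF3, rose by 3.08 ± 0.302 and 3.69 ± 0.311 on the log2 scale (edgeR adjusted p = 4.93e-06 and 1.33e-06). The first Stat2 value was 3.63 without that library.

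Irf1, an activator of antigen presentation genes, had 47.0, 43.3 and 35.6 CPM without treatment, and 40.7, 49.0 and 32.6 CPM with eGFP supernatant. It had 146, 133 and 120.4 CPM with Ifnb1eGFP supernatant and 148, 135 and 123 CPM with rIFNβ. The lowest library with IFNβ was above the highest without it, and the level was 3.27-fold (95% interval 2.62 to 4.08, edgeR adjusted p = 1.63e-06) and 3.24-fold higher (2.59 to 4.04, edgeR adjusted p = 1.62e-06). Without eGFP supernatant replicate 2 the first fold of Irf1 was 3.64. Irf2, its antagonist, varied little between libraries of a condition, with a coefficient of variation of 1.21% to 4.33%. It had 79.4, 79.9 and 78.1 CPM in untreated control, 75.6, 80.1 and 77.0 with eGFP supernatant, 135, 128.4 and 128.3 with Ifnb1eGFP supernatant and 135, 124 and 126 CPM with rIFNβ. Its rise was smaller than that of Irf1 and had the smallest adjusted p of the family, at 1.68-fold (1.58 to 1.80, edgeR adjusted p = 6.25e-08) and 1.62-fold (1.52 to 1.73, edgeR adjusted p = 1.02e-07). Gm16675, a long noncoding RNA on the opposite strand that overlaps the start of Irf2 by 468 bases, 112 of them exonic, rose from 2.67 to 8.27 CPM with Ifnb1eGFP supernatant and from 2.49 to 7.27 CPM with rIFNβ, as means of 3 libraries. These are log2 fold changes of 1.63 and 1.55 (edgeR adjusted p = 8.13e-08 and 1.32e-07).

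Among the members that act downstream of pathogen sensors, Irf5 rose and Irf3 did not pass the test. Irf5 had 158, 159 and 156 CPM in untreated control, 152, 156 and 138 with eGFP supernatant, 215, 289.9 and 235 with Ifnb1eGFP supernatant and 285, 284 and 262 CPM with rIFNβ. Groups with and without IFNβ did not overlap, and the level was 1.65-fold (95% interval 1.44 to 1.91, edgeR adjusted p = 4.40e-05) and 1.75-fold higher (1.52 to 2.02, edgeR adjusted p = 1.77e-05). Irf3, the sensor-activated factor that is present before any stimulus, had 21.8, 21.8 and 22.3 CPM without treatment, and 24.9, 24.5 and 18.8 CPM with eGFP supernatant. It had 16.9, 29.9 and 22.2 CPM with Ifnb1eGFP supernatant, which enclosed the values with eGFP supernatant, and 25.3, 28.7 and 26.7 CPM with rIFNβ, which lay above untreated control. Its ratio was 1.01 (0.780 to 1.31, edgeR adjusted p = 0.948) with Ifnb1eGFP supernatant and 1.23 (0.946 to 1.59, edgeR adjusted p = 0.167) with rIFNβ. The second ratio passed the test when the compared conditions were fitted alone (edgeR adjusted p = 0.00265) or when the GC trend of each library was removed (edgeR adjusted p = 0.0154).

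Irf4, the factor linked to M2 polarization by IL4, was the only member that fell, and per length it was the least expressed of the 8. It had 4.45, 3.69 and 3.26 CPM in untreated control, 2.93, 2.95 and 2.58 with eGFP supernatant, 1.14, 1.19 and 1.22 with Ifnb1eGFP supernatant and 1.66, 2.16 and 1.77 CPM with rIFNβ. These levels rest on 45 to 140 counts per library. The summed markers of dendritic cells and of neutrophils or myeloid progenitors, at similarly low levels, were also lower with IFNβ. Zbtb46 and S100a8 reached the highest levels in these sums. The sum for T or NK cells was lower with IFNβ as well, whereas those for B or plasma cells and for epithelium were higher in both comparisons. The part of the sums in the Irf4 values was not tested. No pair of the 4 conditions overlapped. Irf4 was 2.38-fold lower with Ifnb1eGFP than with eGFP supernatant (log2 fold change −1.25, 95% interval −1.58 to −0.92, edgeR adjusted p = 2.67e-05) and 2.03-fold lower with rIFNβ than in untreated control (−1.02, −1.34 to −0.70, edgeR adjusted p = 9.75e-05).

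Irf8, which with PU.1 sets the myeloid program, did not pass the test. It had 126, 122 and 126.4 CPM in untreated control, 133, 136 and 119 with eGFP supernatant, 126, 168 and 136 with Ifnb1eGFP supernatant and 145, 155 and 137 CPM with rIFNβ. The values with and without IFNβ overlapped between the supernatants and did not overlap between rIFNβ and untreated control. The ratios were 1.11 (95% interval 0.958 to 1.28, edgeR adjusted p = 0.212) and 1.17 (1.01 to 1.35, edgeR adjusted p = 0.0709). The second of these passed the test without the filter on low counts (edgeR adjusted p = 0.0482) and with library totals in place of scaling factors (0.0333). It also passed with the replicate number as a block in the model (0.0411) and when the fit held the compared conditions alone (0.00594). Spi1, which encodes PU.1, had log2 fold changes of 0.09 ± 0.148 and 0.26 ± 0.148 (SE, edgeR adjusted p = 0.629 and 0.158).

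**Figure D2:**
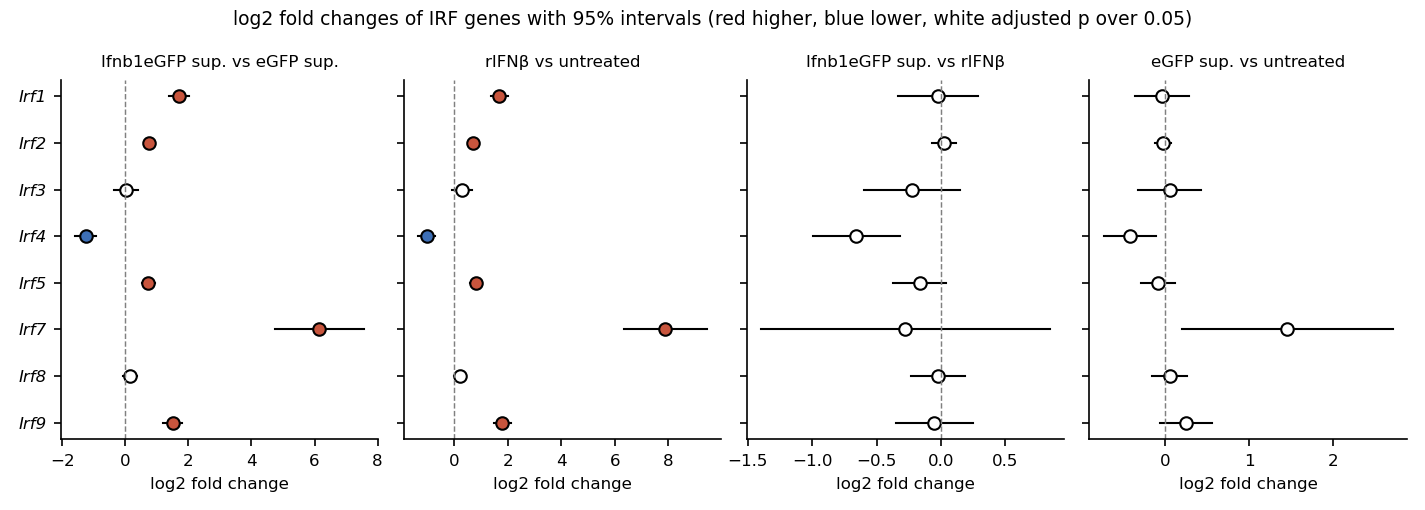
log2 fold change of 8 IRF genes (points) with 95% intervals (lines) in 4 comparisons, each panel with its own horizontal scale. Filled points passed an adjusted p of 0.05 and are found in the panels of both IFNβ comparisons, where Irf4 is the 1 filled point to the left of 0.

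Ifnb1eGFP supernatant and rIFNβ, taken to be at the same IFNβ concentration, were compared to ask whether the source matters. A difference in dose between them cannot be told apart from one of source. None of the 8 members was called (0.16% of all genes were, edgeR), and 1 had an unadjusted p under 0.05, beside 8.57% of all genes. Irf4 had the smallest p, with a log2 fold change of −0.66 (95% interval −1.0 to −0.32, edgeR adjusted p = 0.226) and no overlap between the libraries. The interval for Irf2 was narrow, from −0.07 to 0.12, and those for Irf1, Irf8 and Irf9 ran from −0.33 to 0.28, −0.23 to 0.19 and −0.35 to 0.25. Irf7 was below rIFNβ in all 3 libraries with Ifnb1eGFP supernatant, with an interval of −1.40 to 0.84 (edgeR adjusted p = 0.862). Irf5 had −0.17 (−0.37 to 0.04, edgeR adjusted p = 0.625). Without Ifnb1eGFP supernatant replicate 2, its highest library there, it had −0.30 and was called (edgeR adjusted p = 0.0331). The groups of 2 of the 8 members did not overlap, Irf4 and Irf7, beside 12.8% of all genes tested.

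Supernatant without IFNβ was set against untreated control to see what the supernatant adds. None of the 8 members was called (0.299% of all genes were, edgeR), and 2 had an unadjusted p under 0.05, beside 8% of all genes. Irf4 had a log2 fold change of −0.43 (95% interval −0.74 to −0.12, edgeR adjusted p = 0.358) and was the 1 member whose groups did not overlap, beside 15.5% of all genes. Irf7 had 1.46 (0.20 to 2.72, edgeR adjusted p = 0.529), and 0.21 without eGFP supernatant replicate 2. Irf2 lay within −0.12 to 0.07. The interaction of IFNβ and supernatant called none of the 8 members and 0% of all genes, with 1 member, Irf7, at an unadjusted p under 0.05 beside 4.4% of all genes. The interaction for Irf7 was −1.73 on the log2 scale, and −0.49 without eGFP supernatant replicate 2.

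Because Irf4 was lower with supernatant in both IFNβ states, the supernatant effect was averaged over them, a test chosen after these values were seen and on the same libraries. Irf4 was 1.46-fold lower (log2 fold change −0.54, 95% interval −0.77 to −0.31, edgeR adjusted p = 0.0424). It was the 1 member called, beside 0.905% of all genes called and 0.213% called lower. The call was lost without the filter on low counts (edgeR adjusted p = 0.0612) and when any library other than untreated control replicate 3 or Ifnb1eGFP supernatant replicate 2 was left out (edgeR adjusted p up to 0.111). Irf5 was called beside it, at −0.19, without Ifnb1eGFP supernatant replicate 2 (edgeR adjusted p = 0.0395). The summed macrophage markers were higher with supernatant in both states, whereas Adgre1 had means of 1562 and 1496 CPM without and with supernatant in the absence of IFNβ and 1775 and 1735 CPM in its presence, and Csf1r had 1045 and 1116 CPM and 1120.05 and 1145 CPM. Their part in the Irf4 values was not tested.

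Among the 6 libraries without IFNβ, eGFP supernatant replicate 2 was above the other 5 for Irf7 (45.2 CPM beside 5.25 to 11.3), Irf9 (49.5 beside 29.2 to 36.3), Irf1 (49.0 beside 32.6 to 47.0), Irf8 (136 beside 119 to 133) and Irf2 (80.1 beside 75.6 to 79.9). The summed level of 20 genes read through ISGF3 and the ISRE was 1436 CPM there and 344 to 505 CPM in the other 5. Stat2 had 124.8 CPM there and 43.4 to 61.9 CPM in the other 5. Irf3, Irf4 and Irf5 lay within the range of the others. What set this library apart was not tested.

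**Figure D3:**
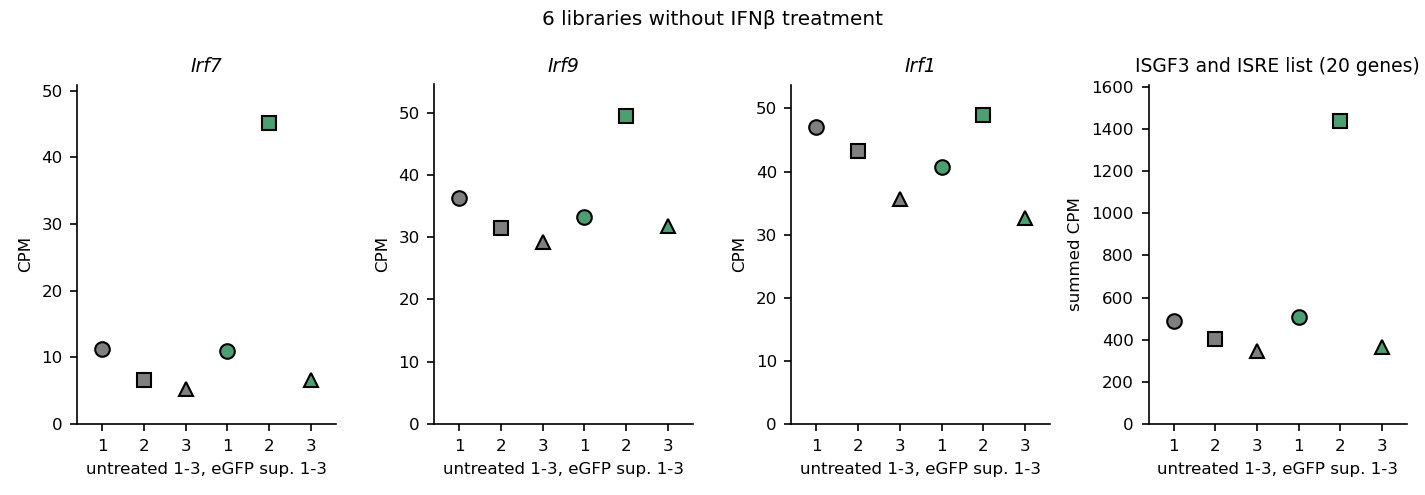
CPM of Irf7, Irf9 and Irf1 and summed CPM of 20 ISGF3 and ISRE genes in the 6 libraries without IFNβ, with untreated control in grey and eGFP supernatant in green. eGFP supernatant replicate 2 (green square) is the highest of the 6 in every panel.

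Levels of different members were compared per length, as TPM, in which counts are divided by the length of the canonical transcript and the sum over genes is set to the same size in each library. Without IFNβ, Irf5 led the family with 171 ± 2.00 TPM in untreated control (SD, n = 3), which was 41.4% ± 1.17 of the summed IRF level. Irf2 followed with 74.8 ± 1.00 TPM, then Irf8 with 58.5 ± 1.44, Irf1 with 46.7 ± 6.67, Irf9 with 27.6 ± 3.26, Irf3 with 25.2 ± 0.372, Irf7 with 7.65 ± 3.23 and Irf4 with 1.90 ± 0.313 TPM. In this order Irf9 and Irf3 overlapped between libraries and the other neighbours did not. The order was the same with eGFP supernatant, where Irf1 overlapped Irf9, Irf9 overlapped Irf3, and Irf3 overlapped Irf7. With IFNβ the order began with Irf7, at 1538 ± 147 TPM for Ifnb1eGFP supernatant and 1854 ± 84.5 TPM for rIFNβ, followed by Irf5 at 278 ± 35.7 and 310.4 ± 11.6 TPM and Irf1 at 154 ± 16.2 and 156 ± 13.5 TPM. Irf2, Irf9, Irf8, Irf3 and Irf4 came next in both, and no neighbours overlapped. Irf7 made up 67.0% ± 1.27 and 70.01% ± 0.485 of the family with IFNβ, 1.83% ± 0.699 in untreated control and 1.77% to 9.33% with eGFP supernatant. The summed IRF level was 399 to 431 TPM in untreated control, 378 to 469.8 with eGFP supernatant, 2138 to 2494 with Ifnb1eGFP supernatant and 2572 to 2776 with rIFNβ. With the length of all annotated exons, Irf5 still led without IFNβ and Irf7 with it. Irf2 then came below Irf8 in every condition, below Irf1 also without IFNβ, and below Irf9 with IFNβ. The shares depended on the length used, and 28 of 32 moved by over 1 SD. Irf7 then made up 77.4% of the family with Ifnb1eGFP supernatant, 79.8% with rIFNβ and 3.08% in untreated control, where Irf5 made up 33.6%.

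**Figure D4:**
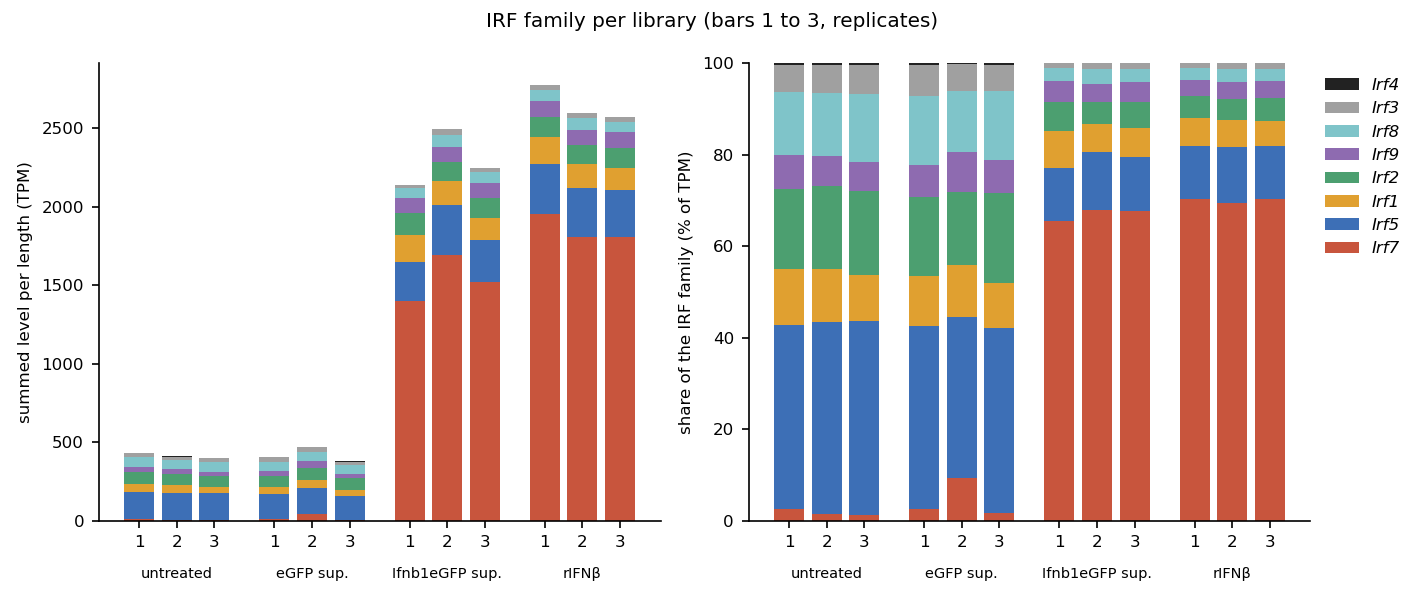
Summed level per length (left, TPM) and share of the family (right, % of TPM) of 8 IRF genes in each library, stacked by gene, with replicates 1 to 3 side by side for each condition. The Irf7 segment goes from 1.3% to 9.33% of the family in libraries without IFNβ to 65.6% to 70.3% with it.

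Genes around the family were counted on lists of known partners, upstream signalling and linked targets, without a test of the lists. Of all genes tested, 30.1% were called higher and 25% lower with Ifnb1eGFP supernatant, and 30.7% and 24.6% with rIFNβ. Each list count in this and the following paragraphs is to be read beside these shares. Of 14 tested partners and cofactors, 7 rose and 2 fell with Ifnb1eGFP supernatant, and 8 rose and 1 fell with rIFNβ. Batf2, which pairs with IRF1, rose by 1.96 ± 0.118 and 2.48 ± 0.121 on the log2 scale (SE, edgeR adjusted p = 9.05e-08 and 1.52e-08). Batf, which binds DNA together with IRF4 and IRF8, rose by 1.12 ± 0.224 and 1.97 ± 0.238 from means of 0.833 and 0.513 CPM. Batf3, its relative, fell by 1.43 and 1.06 (SE 0.220 and 0.219), as the summed dendritic cell markers were lower, whose part in this was not tested. Ikzf1, a zinc finger factor that meets IRF4 and IRF8 on DNA, rose by 0.97 ± 0.0591 and 1.03 ± 0.0594.

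Upstream of IRF3, IRF5 and IRF7, 21 of 27 genes rose and 3 fell with Ifnb1eGFP supernatant, and 21 rose and 2 fell with rIFNβ, with median log2 fold changes of 0.51 and 0.49. The nucleic acid receptors Tlr3 and Tlr9 rose by 2.50 ± 0.0900 and 2.44 ± 0.104 with Ifnb1eGFP supernatant and by 2.62 ± 0.0912 and 2.85 ± 0.108 with rIFNβ. Tasl, the adaptor that recruits IRF5 at the lysosome, rose by 2.48 ± 0.0959 and 2.54 ± 0.0973, and Cgas, the sensor of cytosolic DNA, by 1.41 ± 0.0707 and 1.56 ± 0.0720. Ikbkg, the regulatory subunit of the IKK complex, fell by 0.54 and 0.59 (SE 0.0390 in both). The 17 listed type I IFN genes were too low to be tested, and Ifnb1 had at most 1 count in a library.

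Among genes read through ISGF3 and the ISRE, 20 of 20 were higher in both comparisons, with median log2 fold changes of 4.37 and 6.00. Known IFN-stimulated genes make up this list, which was chosen with earlier results of these data known, so the count is a description only. The first median was 5.74 without eGFP supernatant replicate 2. Trim21, an antibody receptor in the cytosol, rose by 2.17 ± 0.0922 and 2.43 ± 0.0939, and Bst2, which tethers virus particles, by 2.71 ± 0.174 and 3.11 ± 0.177. Adar, an editor of double-stranded RNA, rose by 1.76 ± 0.119 and 1.95 ± 0.120, and Xaf1, which counters apoptosis inhibitors, by 3.98 ± 0.296 and 4.58 ± 0.309. In the 250 bases before the start, 6 of the 14 genes of this list with a promoter in the table held an ISRE core.

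Of 11 tested genes linked to IRF1, 10 rose and 1 fell in both comparisons. Il15, a cytokine for NK cells, rose by 2.57 ± 0.111 and 2.75 ± 0.113, Cd274, which encodes PD-L1, by 2.63 ± 0.155 and 2.81 ± 0.156, Psmb9, an immunoproteasome subunit, by 2.24 ± 0.142 and 2.50 ± 0.143, and Casp1, the inflammasome protease, by 1.09 ± 0.0694 and 1.10 ± 0.0694. The 1 that fell was Ciita, the activator of MHC class II genes, by 1.39 ± 0.250 and 1.09 ± 0.240. Its level was low, with means going from 1.12 to 0.424 CPM and from 1.36 to 0.636 CPM on 12 to 59 counts per library. Ciita was named after its values were seen, and the part of the lower summed dendritic cell markers in its fall was not tested.

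Of the 4 genes linked to IRF4 in IL4-treated macrophages, 1 rose and 3 did not pass the test in either comparison. Chil3, a chitinase-like M2 marker, rose by 0.77 ± 0.0883 and 0.67 ± 0.0885 (SE, edgeR adjusted p = 1.73e-05 and 5.55e-05). Mrc1, the mannose receptor, had 0.12 ± 0.0804 and 0.13 ± 0.0804, and Retnla, a secreted M2 marker, −0.17 ± 0.140 and −0.12 ± 0.141 (edgeR adjusted p from 0.193 to 0.492). Arg1, the arginase of M2 macrophages, was at 0.208 to 0.877 CPM in all libraries, so that this marker of the labelled M2-like state was nearly absent, while Mrc1 had 609 to 839 CPM. Arg1 had −0.52 ± 0.347 and −0.80 ± 0.391 (edgeR adjusted p = 0.228 and 0.106).

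Of 5 genes linked to IRF5 only Tnf, an inflammatory cytokine, was tested, at 0.53 ± 0.380 and 0.47 ± 0.377 (edgeR adjusted p = 0.262 and 0.322), while Il6, Il12a, Il12b and Il23a were too low. Of 6 tested genes linked to IRF8, 2 rose and 3 fell in both comparisons. Il18, a cytokine processed by caspase-1, rose by 2.16 ± 0.0870 and 2.27 ± 0.0886, and Cybb, the catalytic subunit of the phagocyte oxidase, by 0.44 ± 0.101 and 0.45 ± 0.101. Klf4, a monocyte transcription factor, fell by 1.15 and 1.25 (SE 0.0903 and 0.0899), and Slc11a1, a metal transporter of phagosomes, by 0.43 and 0.35. Cst3, a protease inhibitor, had −0.06 ± 0.122 and 0.09 ± 0.122. Of the 83 tested list genes, edgeR called 0 for Ifnb1eGFP supernatant against rIFNβ, beside 0.16% of all genes. It also called 0 for eGFP supernatant against untreated control, beside 0.299% of all genes.

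**Figure D5:**
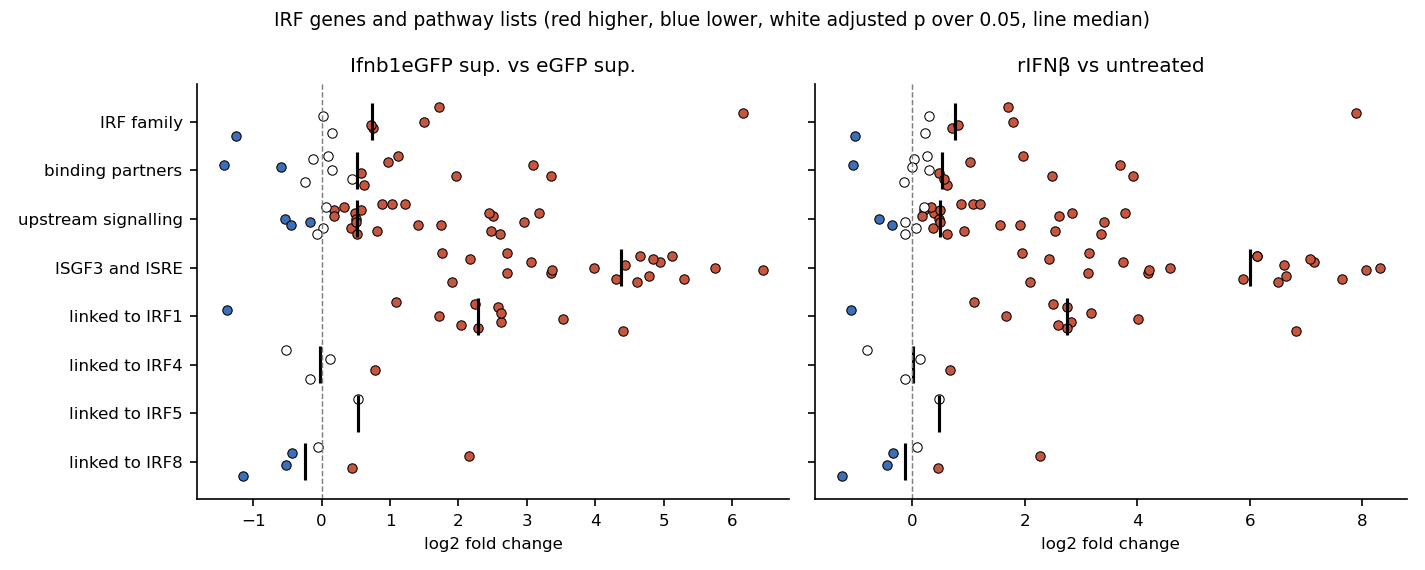
log2 fold change of each tested gene (point) in the IRF family and in 7 lists, with Ifnb1eGFP against eGFP supernatant on the left and rIFNβ against untreated control on the right. Filled points passed an adjusted p of 0.05, vertical lines are medians, and the ISGF3 and ISRE list has its medians at 4.37 and 6.00.

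The genes whose pattern over the 12 libraries was most like that of each member were named by Pearson's r of log2 CPM, as a description only, since the libraries of a condition share their treatment. Irf7 was most like Irf9, Stat2 and Oas1a, with r of 0.999 for each, and Irf9 was most like Irf7, Helz2 and Stat2. Irf2 was most like Samhd1, Aida and Sgcb (0.997 to 0.998). Irf1 was most like 9930111J21Rik1 and 9930111J21Rik2, copies whose reads may be split between them, and ENSMUSG00000111118. Irf5 was most like Nosip, Rps20 and Bak1 (0.995 to 0.997), Irf3 like Sf3a2, Rnpepl1 and Mfsd5 (0.976 to 0.984), and Irf8 like Adprh, Rab5c and Atf5 (0.971 to 0.978). Irf4 was most like Pcna, Gart and Nefh (0.969 to 0.972).

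Reads of some members could be shared with neighbours. Irf9 lies on the same strand as Rnf31, a ubiquitin ligase gene, and shares 282 annotated exon bases with it. Rnf31 rose by 1.40 ± 0.124 and 1.69 ± 0.126 on the log2 scale. Opposite-strand exon overlaps join Irf1 with Gm17334 (1467 bases) and Gm12216 (619 bases), Irf3 with Bcl2l12 (123 bases) and Scaf1 (22 bases), Irf5 with Tnpo3 (416 bases) and Irf7 with Phrf1 (63 bases). Gm17334 rose by 0.70 ± 0.169 and 1.00 ± 0.172 and Tnpo3 fell by 0.17 ± 0.0354 and 0.24 ± 0.0355, while Gm12216 had 0.41 and 0.46, Bcl2l12 0.06 and 0.43, Scaf1 −0.29 and −0.05 and Phrf1 0.04 and 0.02 (edgeR adjusted p from 0.0520 to 0.874). The libraries were stranded, and the strand setting of the counting is not given in the sources used here.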

How the data were processed

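Bulk RNA sequencing libraries (TruSeq Stranded Total RNA) of 12 BMDM samples were analysed from the expected counts per Ensembl gene that the authors deposited, made with RSEM 1.3.3 per the labels and neither normalized nor filtered. The genome is called GRCm39 mm10 in the methods, names of 2 builds, and positions here are those of GRCm39 (GENCODE). Columns were assigned by the sample descriptions. Expected counts were rounded, because 12.0% of values were not whole. Genes passing filterByExpr (15033) were scaled by TMM and fitted over all 12 libraries in edgeR 4.0.16 (R 4.3.3), with 1 quasi-likelihood model and Benjamini-Hochberg adjustment. The SE was the absolute log2 fold change over the root of the F statistic. Values of log2 CPM used a prior count of 2, which did not enter the reported fold changes. An exact permutation test of 3 against 3 libraries cannot give a p under 0.1, so members were tested in the model alone. The design named edgeR as the main test and DESeq2 1.42.0, the study's tool, as an alternative, beside RLE factors, library totals, no filter, the replicate block, only the compared conditions, removal of GC trends by splines and each library left out in turn.

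Members and lists were chosen with earlier results of these data known. Named were all members, the 3 genes most like each, the 4 smallest adjusted p of each list, whole lists of up to 7, Stat2, Spi1 and Batf genes, and overlapping neighbours. Ikbkg, Ciita, macrophage markers given by direction, single markers of other cell types and list genes too low to be tested were named after their values were seen. Replicates are separate samples of a condition, and no 2 of them agreed within counting error. Some genes of the family and lists are not reported here.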

Additional observations from a re-analysis of the deposited data

How the results depend on the processing

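Each member was recomputed in each comparison of 2 conditions under 14 settings, the reported one included. In both IFNβ comparisons Irf1, Irf2, Irf4, Irf5, Irf7 and Irf9 kept their direction and their call under every setting that kept this threshold. When a log2 fold change of 2 in size and an adjusted p no higher than 0.01 were asked for, the count of members called was 1 in each. Leaving out Ifnb1eGFP supernatant replicate 2 gave 1 member and 4 list genes called against rIFNβ, so that over all libraries left out these counts ran from 0 to 1 and from 0 to 4. For eGFP supernatant against untreated control, 1 list gene, Tlr7, was called by DESeq2 and without the filter on low counts. Reversals touched only values near 0 that were not called. For Ifnb1eGFP against eGFP supernatant, Irf3 had −0.024 with RLE factors, −0.024 with DESeq2 and −0.0068 without the filter, and −0.22 to 0.15 with libraries left out. Against rIFNβ, removing the GC trend gave 0.016 for Irf1 and −0.0063 for Irf2, and leaving out libraries gave −0.094 to 0.044 for Irf1 and −0.15 to 0.066 for Irf8. For eGFP supernatant against untreated control, Irf2 had 0.0018 without the filter, and leaving out libraries gave −0.19 to 0.098 for Irf1 and −0.018 to 0.17 for Irf3. In the interaction, Irf1 had −0.010 without the filter and Irf5 0.055 without the GC trend, and leaving out libraries gave −0.12 to 0.17 for Irf1, −0.22 to 0.010 for Irf5 and −0.20 to 0.018 for Irf8. The cause was not tested.

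The main model held no replicate block, and the sources used here do not say what a replicate number marks. Deviations of libraries with the same number correlated at 0.058 to 0.25 (mean 0.15, over 0.1 in 13 of 18 pairs). Those of the 36 pairs with different numbers correlated at −0.32 to 0.15 (mean −0.074). Deviations were taken from the mean of each condition, so these values and the following count are not independent of the same-number correlations. The libraries correlated best with their own number in 12 of 12 cases, a hint from the data and not the design. With the replicate block, Irf8 was called for rIFNβ (log2 fold change 0.22, edgeR adjusted p = 0.0411), which made 7 members there and left the counts of the other comparisons at 6 and 0. DESeq2 gave no adjusted p for Irf4 averaged over both IFNβ states, and the alternative with the length of all exons, the GC trend, the averaged test and the wider promoter window were chosen after seeing the data. At 45 to 140 counts Irf4 is the member that depth limits most.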
